A study of Mus musculus with 21 samples.

Results

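The transcriptional response of red cell progenitors to erythropoietin (Epo) was measured while heme synthesis was blocked. Libraries made after 12 h of Epo with succinyl acetone (SA) were compared with libraries made at 0 h. The comparison uses 6 of the 21 libraries of the series, 3 of each kind, and the 3 libraries made after 12 h of Epo without SA serve as the direct comparator. All libraries came from MEDEP cells of the BRC5 line, a mouse erythroid progenitor line derived from embryonic stem cells, grown in IMDM with 15% FCS, ascorbic acid, ITS supplement and alpha-TG. At 0 h the cells were growing in SCF (the ligand of the receptor Kit) at 50 nM and the glucocorticoid dexamethasone, without SA. For the 12 h groups SCF and dexamethasone were removed and Epo was added at 4 U/ml, with SA in one group and without it in the other. The change from 0 h therefore joins the loss of SCF, the loss of dexamethasone, the arrival of Epo and the SA, and these cannot be told apart in it. Only the difference between the 12 h groups isolates the SA. The SA dose is not given in the sources used here, no group received SA without Epo, and the cells are 1 line in culture with no bone marrow niche. The design text calls the 3 libraries of each group biological replicates.

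Epo binds its receptor on erythroid progenitors and activates the kinase JAK2 and the transcription factor STAT5, whose targets include the feedback inhibitor Cish and the survival kinase Pim1. Terminal differentiation then replaces a growth program driven by Kit and glucocorticoids with one in which GATA1, KLF1 and TAL1 switch on globins, heme enzymes and membrane proteins. Heme is made from glycine and succinyl-CoA by an ALA synthase (ALAS1 in most cells, ALAS2 in erythroid cells), and SA inhibits ALA dehydratase, the next enzyme. Heme also acts as a signal: it inactivates the repressor BACH1, it keeps the kinase HRI (gene Eif2ak1) inactive, and it lowers Alas1 in many cell types.

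Of the 8 largest rises, 5 (Cish, Gm4847, C7, Apol10a and Apol11b) carried the letters that STAT5 binds in the promoter window searched. Stard13, Ano3 and Apol8 did not. Among all genes tested that had a promoter, 834 of 9539 carried the letters (8.74%). The 8 genes were chosen by the size of their rise, so the 5 are not a test. In Apol10a and Apol11b, whose stretches are similar, the match began 241 bases before the start. The stretches of the 5 are shown because they carried the letters. Alas1 is shown because it carried them too and fell without SA. All promoter sequences are from RefSeq (GRCm38.p6), are written 5′ to 3′ on the strand of the gene, and are a description of letters, not of binding. The capitals mark TTCNNNGAA in Cish, Gm4847, C7, Apol10a, Apol11b, Csf2rb2, Nupr1 and Alas1. In Nupr1 and Trib3 they mark the reverse strand of TGATGNAA, an element bound by ATF4 with a C/EBP partner, in Nupr1 in addition to the STAT5 letters. In Alas2 they mark the reverse strand of AGATAA, the GATA1 motif. The Cish stretch (chr9:107296619-107296682, plus strand) runs from 40 bases before the start to 24 bases after it and holds 2 matches.
Cish: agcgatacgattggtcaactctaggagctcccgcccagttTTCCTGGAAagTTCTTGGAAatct
Gm4847 (chr1:166647798-166647898, minus): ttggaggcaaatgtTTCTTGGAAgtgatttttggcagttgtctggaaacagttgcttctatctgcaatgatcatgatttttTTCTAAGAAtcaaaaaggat
C7 (chr15:5063909-5063958, minus): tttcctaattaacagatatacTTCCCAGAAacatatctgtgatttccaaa
Apol10a (chr15:77476797-77476846, plus): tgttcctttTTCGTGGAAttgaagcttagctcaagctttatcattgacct
Apol11b (chr15:77643487-77643536, minus): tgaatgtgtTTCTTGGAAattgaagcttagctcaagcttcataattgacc
Csf2rb2 (chr15:78305722-78305771, minus): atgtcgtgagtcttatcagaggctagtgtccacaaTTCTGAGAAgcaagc
Nupr1 (chr7:126625556-126625615, minus): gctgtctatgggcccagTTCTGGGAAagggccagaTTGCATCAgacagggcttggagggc
Alas1 (chr9:106248100-106248149, minus): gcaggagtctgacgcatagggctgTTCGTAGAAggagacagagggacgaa
Trib3 (chr2:152344037-152344090, minus): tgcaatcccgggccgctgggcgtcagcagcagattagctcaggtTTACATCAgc
Alas2 (chrX:150547307-150547356, plus): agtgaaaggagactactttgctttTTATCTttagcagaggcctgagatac

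Totals ranged from 23828086 to 31962049 estimated counts at 0 h, from 31015256 to 39316031 at 12 h with SA, and from 24960611 to 37135174 at 12 h without SA. Over these 9 libraries the first principal component held 89.2% of the variance and separated 0 h from 12 h. The second held 3.39% and separated the 12 h groups, with replicate 1 without SA at -5.58 and replicates 2 and 3 at -10.77 and -11.13. On the third, replicate 1 stood apart in every group. It lay at 7.51 (0 h), 12.12 (12 h without SA) and 5.87 (with SA), and all other libraries lay from -7.39 to -1.49. The cells matched their label. The 12 erythroid markers summed to 2420 to 2640 CPM (counts scaled to library size, which compare 1 gene between libraries) at 0 h, to 9310 to 10100 at 12 h with SA and to 12800 to 13300 at 12 h without it, and 11 of the 12 rose with SA. Macrophage, neutrophil, lymphocyte, stromal and pluripotency marker lists each summed to at most 2 CPM in every library. The 11 mast cell markers summed to 42.8 to 51.9 CPM at 0 h, 173 to 286 with SA and 206 to 314 without SA. Of the 8 tested, 4 rose with SA and 3 fell: the proteases Mcpt1, Mcpt2 and Mcpt4 rose by 5.75, 4.81 and 3.61 on the log2 scale, Fcer1a had 45 counts against 0 (at least 13.1-fold higher, against a floor of 3 counts over the group), and Hdc, Ms4a2 and Cpa3 fell, while Mcpt8 and Tpsab1 were at 0 in all 3 SA libraries. The 12 megakaryocyte markers summed to 17.9 to 22.8, 20 to 20.6 and 22.3 to 24.2 CPM in the same order, with Pf4 and Ppbp among the 5 at 0 with SA. The part of these lists in the results was not tested.

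With heme synthesis blocked, the switch to Epo still changed expressed genes in both directions on a wide scale. Of 12360 genes tested with edgeR's quasi-likelihood test, 3036 were higher (24.6%) and 3189 lower (25.8%) at 12 h with SA than at 0 h at a Benjamini-Hochberg adjusted p of at most 0.05. At least 2-fold rises numbered 1097 (8.88%) and at least 2-fold falls 884 (7.15%). Libraries of 12 h with SA and of 0 h did not overlap in 8424 of the genes tested (68.2%), so such separation was common. The same share was not computed for the 12 h groups. Without SA, and against the same 0 h libraries, 3123 genes were higher (25.3%) and 3416 lower (27.6%) at 12 h. The median log2 change of all genes tested was -0.007 in both. The shares of all genes called are the background for every count of list members given below. The samples were bulk cultures, so a change in the share of cells of one kind and a change in RNA per cell cannot be told apart.

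Few genes passed the direct test of SA at 12 h in the fit over all 21 libraries. Compared with 12 h without SA, 45 genes were lower (0.364%) and 2 were higher (0.0162%), and the same-numbered libraries of the 12 h groups deviated together. With the replicate number as a block the counts were 79 lower (0.639%) and 5 higher (0.0405%), and all 47 genes of the unblocked test were among those 84. The 95% interval of the difference lay within 1.5-fold in either direction for 8343 genes (67.5%), for 551 of the 1097 genes that had risen at least 2-fold (50.2%) and for 505 of the 884 that had fallen (57.1%). The count of 47 moved with the method, for a reason that was not tested. With only the libraries compared in the fit it was 465 (89 higher, 376 lower). DESeq2's Wald test, fitted to the 9 libraries of 0 h and the 12 h groups, gave 788 (270 higher, 518 lower). That run changed both the test and the set of libraries. With a single library left out the count was 31, 13 or 18 (12 h replicate 1, 2 or 3) and 17, 11 or 13 (SA replicate 1, 2 or 3).

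A small and broad shift accompanied those calls. The 1968 genes that had risen at least 2-fold by 24 h of Epo without SA had a median difference of -0.075 (log2, SA minus no SA), and 66.5% of them were below 0. Among all genes tested 43.5% were below 0 and the median was 0.019. The 1915 genes that had fallen at least 2-fold by 24 h had a median difference of 0.078, with 68.6% above 0. Most risers thus lay slightly lower with SA and most fallers slightly higher, and 28 of the risers passed the direct test as lower and 1 as higher.

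**Figure D1:**
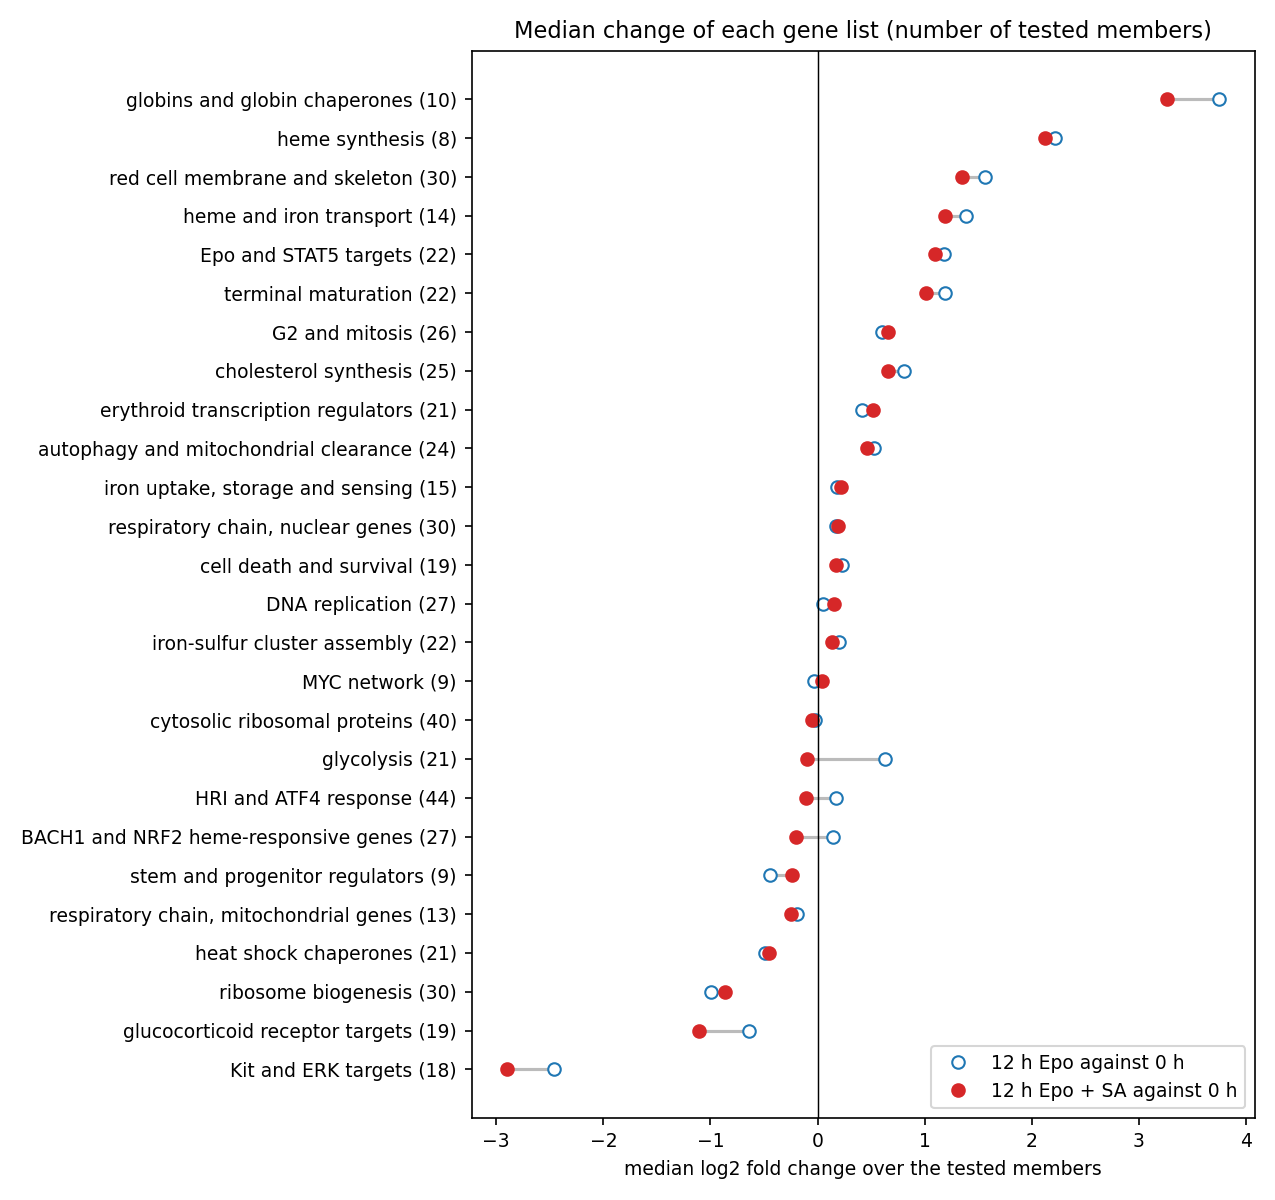
Median log2 change against 0 h (x axis) over the tested members of each gene list, after 12 h of Epo with SA (filled) and without SA (open), with the number of members in brackets. The globin list is highest and the Kit and ERK list lowest in both, and glycolysis shows a median of -0.099 with SA and 0.633 without; both sets of changes share the 0 h libraries.

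Genes known as targets of Epo and STAT5 rose in the presence of SA. Of 22 Epo and STAT5 targets tested, 15 rose and 4 fell with SA (median log2 change 1.099, against -0.007 for all genes), and without SA 15 rose and 4 fell (median 1.178). Cish, a feedback inhibitor of the Epo receptor, stood at 0.935, 0.838 and 0.833 CPM at 0 h, at 189.0, 179 and 156 with SA and at 216, 182 and 173 without SA. The 0 h libraries lay far below all 12 h libraries, and the 12 h groups overlapped. Its log2 change with SA was 7.64 ± 0.19 (SE, n = 3 against 3, edgeR adjusted p 1.23e-16), beside 7.77 without SA, and the direct difference was -0.12 (95% interval -0.41 to 0.17).

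Pim1, which encodes a survival kinase, went from 6.36, 7.64 and 6 CPM to 407, 450 and 359 with SA (log2 change 5.93 ± 0.15, edgeR adjusted p 4.66e-16) and reached 494, 504 and 401 without it. Osm, the cytokine oncostatin M, went from 0.134, 0.305 and 0.481 CPM to 24.1, 26.5 and 20.7 with SA, beside 30.3, 34.4 and 26.6 without. Both genes were high in every 12 h library. The ranges of the 12 h groups overlapped for Pim1 and nearly touched for Osm, and in all 3 same-numbered pairs Cish, Pim1 and Osm were lower with SA, without passing the test with the replicate block (adjusted p 0.953, 0.699 and 0.481). Socs3, another feedback inhibitor, rose by 4.49 ± 0.33 with SA and by 4.66 without. Erfe encodes erythroferrone, the hormone by which erythroid cells lower hepcidin. It rose from 2.04, 1.47 and 1.70 CPM to 47.2, 58.9 and 49.7 with SA, all below the 70.8, 79.0 and 70.2 without SA, and the difference of -0.50 (-0.86 to -0.14) did not pass the edgeR test (adjusted p 0.469, and 0.207 with the replicate block).

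Some members went the other way in both settings. Stat5a and Stat5b, the transcription factors themselves, had log2 changes of -1.88 ± 0.10 and -1.19 ± 0.08 with SA and -1.90 and -1.11 without. Epor, the receptor, rose by 0.32 ± 0.10 (edgeR adjusted p 0.0111), a call lost when 0 h replicate 2 or SA replicate 2 was left out (adjusted p 0.0575 and 0.065) and in limma on TPM (0.277 to 0.388). Trib3 was the member of the list that differed between the 12 h groups, and its values are given with the ATF4 genes.

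The 8 largest rises with at least 100 counts on average were Stard13, Apol10a, Gm4847, Apol11b, C7, Ano3, Cish and Apol8. Stard13 had no count in the 0 h libraries and 605 in the SA libraries, at least 176-fold higher against a floor of 3 counts over the group. Apol10a had 1 count at 0 h and 707 with SA, a ratio of 617 with a 95% counting interval of 110 to 24400. Gm4847 had 2 and 753 (ratio 329, interval 90.7 to 2720), and C7, a complement component, had 3 and 909 (ratio 264, interval 90.2 to 1280); these intervals cover counting error only. Apol8, Apol10a and Apol11b, members of the apolipoprotein L family, are similar in sequence, and the counting may have divided reads among them. Apol11b reached 50.4, 32.3 and 36.9 CPM with SA from 0.153, 0.127 and 0.204 at 0 h, and 50.0, 28.5 and 38.3 without SA, so the 12 h groups overlapped. C7 was the 1 of the 8 that passed the direct test: it stood at 6.21, 5.03 and 5.16 CPM with SA and at 11.9, 10.3 and 10.2 without (difference -0.99, edgeR adjusted p 0.0278), a call lost when any library of the 12 h groups was left out (0.0694 to 0.221).

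Csf2rb encodes the beta chain shared by the receptors for IL-3, GM-CSF and IL-5, and Csf2rb2 encodes a related beta chain. The genes are near-identical copies, so their separate values are uncertain. Csf2rb2 went from 45.2, 13.8 and 20.3 CPM to 3315, 2418 and 2534 with SA (log2 change 6.70 ± 0.27) and to 3317, 2265 and 2475 without it. In both genes replicate 1 was the highest library of its group at every one of these times. The alpha chain Csf2ra stood at 5.29, 5.41 and 4.83 CPM at 0 h and at 5.62, 5.58 and 5.22 with SA, and it was at 10.1, 10.7 and 8.94 without SA, higher than in every SA library (difference -0.85, edgeR adjusted p 0.0278).

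**Figure D2:**
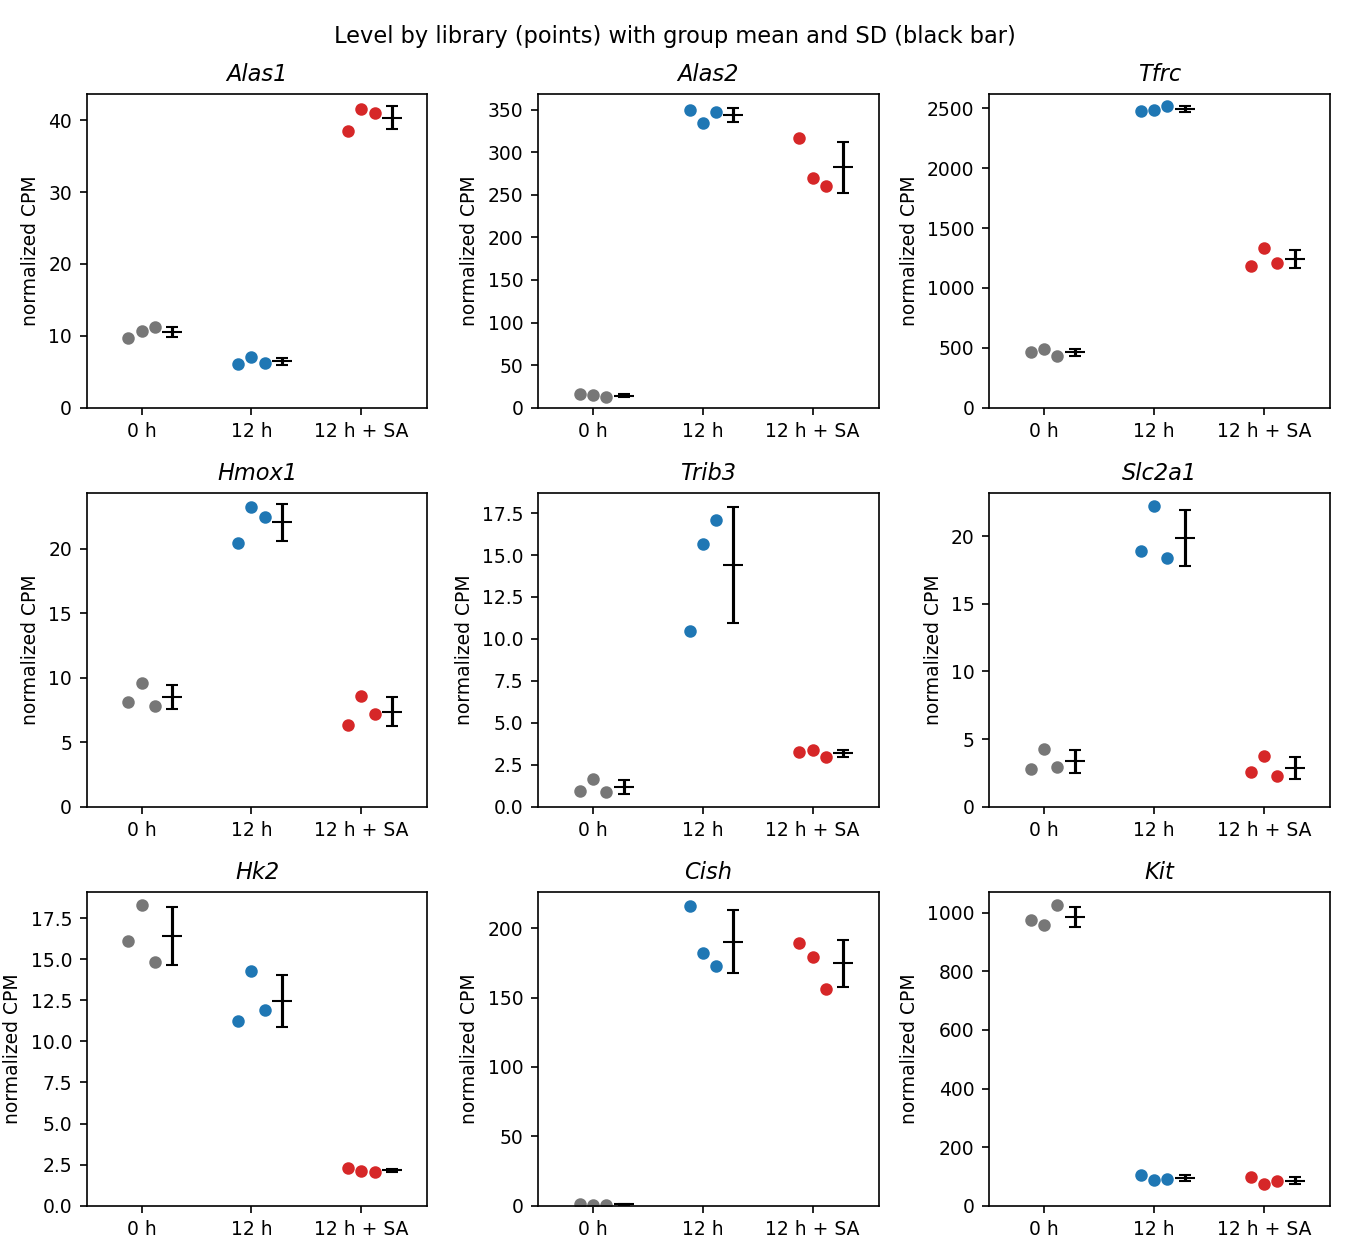
Normalized CPM (y axis, linear, from 0) of 9 genes in the 9 libraries, by group (0 h, 12 h, 12 h with SA), 1 point per library with the group mean and SD as a black bar. Cish and Kit reach similar levels in both 12 h groups, Hmox1 and Slc2a1 with SA overlap with 0 h, Tfrc and Trib3 lie in between, Hk2 is lowest with SA and Alas1 is highest with SA.

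Genes of the growth program that SCF and Kit maintain fell with SA. Of 18 Kit and ERK targets tested, 13 fell and 1 rose with SA (median log2 change -2.898, or -2.766 with Fosl1, at 0 with SA, set at its bound), and 12 fell and 2 rose without SA (median -2.457). Kit itself, the SCF receptor, stood at 976, 957 and 1025 CPM at 0 h, at 98.5, 72.9 and 85.3 with SA and at 104, 87.0 and 91.5 without. The 12 h groups overlapped, 0 h lay above both, and the fall with SA was -3.53 ± 0.20 (edgeR adjusted p 3.29e-11). Etv5, an ETS factor downstream of ERK, went from 37.8, 37.2 and 36.7 CPM to 0.362, 0.252 and 0.275 with SA (log2 change -6.97 ± 0.32). The related Etv4 and the ERK phosphatase Dusp6 changed by -7.54 ± 0.83 and -5.61 ± 0.38. Myc fell by 1.78 ± 0.19 with SA, to 54.4, 49.0 and 57.8 CPM from 185, 177 and 191.

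Abcb5, a transporter of the ABC family, had the largest fall among genes averaging 100 counts or more: 25.03, 15.4 and 21.9 CPM at 0 h and 0.0953, 0.0157 and 0.0589 with SA (log2 change -8.49 ± 0.61). The other large falls with at least 100 counts on average were Etv4, Rasd1 (-7.33 ± 0.26), Etv5, Fa2h (-6.57 ± 0.34), Klhl6 (-6.47 ± 0.22), Tespa1 (-6.13 ± 0.63) and Dusp6. None of these 8 passed the direct test against 12 h without SA (edgeR adjusted p 0.9 to 1).

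Of 19 glucocorticoid receptor targets tested, 12 fell and 2 rose with SA (median -1.107), and 11 fell and 2 rose without SA (median -0.641). Sgk1, a kinase induced by glucocorticoids, went from 94.5, 77.5 and 74.1 CPM to 8.29, 7.49 and 6.75 with SA, beside 7.75, 7.46 and 7.92 without. The clock gene Per1 and the receptor co-chaperone Fkbp5 changed by -2.66 ± 0.11 and -2.18 ± 0.16. Dusp1, a MAP kinase phosphatase, rose from 4.98, 3.33 and 2.61 CPM to 60.5, 73.6 and 51.7 with SA (log2 change 4.08 ± 0.19). Of 9 stem and progenitor regulators tested, 4 rose (Csf2rb2, Csf2rb, Runx1 and Spi1) and 4 fell (Kit, Myb, Gata2 and Hhex) with SA. The transcription factors Myb and Gata2 changed by -3.69 ± 0.19 and -2.77 ± 0.16 with SA, and the direct differences were 0.15 (-0.25 to 0.55) and 0.10 (-0.26 to 0.45).

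The main transcription factors of the erythroid switch rose in the presence of SA. Of 21 erythroid regulators tested, 12 rose and 3 fell with SA, none passed the direct test, and for 19 the interval of the difference lay within 1.5-fold. Tal1 stood at 116, 103 and 106 CPM at 0 h and at 731, 694 and 687 with SA, beside 733, 682 and 696 without SA. The 12 h groups overlapped almost library for library, and the direct difference was 0.00 (95% interval -0.17 to 0.17). Gata1 rose by 1.20 ± 0.08, Klf1 by 1.49 ± 0.10 and Sox6 by 3.14 ± 0.13 with SA, each within 0.03 of its change without SA. Foxo3, a regulator of antioxidant genes and of late maturation, was at 160, 160 and 154 CPM with SA and at 222, 243 and 231 without, from 104, 98.2 and 103 at 0 h. Its direct difference of -0.55 did not pass the edgeR test (adjusted p 0.0558) and passed with the replicate block (0.0164), as did that of Lyl1 (0.0558 and 0.017), which changed by -2.26 ± 0.11 with SA and by -1.76 without.

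Most membrane and skeleton genes of the red cell also rose with SA. Of 30 tested, 25 rose and 1 fell with SA (median 1.346), and 26 rose and 1 fell without SA (median 1.56). Slc4a1 encodes band 3, the anion exchanger, and stood at 12.3, 15.1 and 13.04 CPM at 0 h, 1557, 1951 and 1653 with SA and 1900, 2377 and 2244 without (log2 change with SA 7.00 ± 0.15, edgeR adjusted p 1.34e-16). One SA library lay above the lowest library without SA, and the difference of -0.34 (-0.63 to -0.04) did not pass the test (adjusted p 0.732, and 0.252 with the block). The list member that passed the direct test was Slc2a1, given with glycolysis. Dmtn, the skeleton protein dematin, and Epb42, protein 4.2, rose by 3.78 ± 0.10 and 2.73 ± 0.10. The ammonium channel gene Rhag was the member that fell (-0.30 ± 0.12, edgeR adjusted p 0.0418), a call lost when any of the 6 libraries was left out (0.0521 to 0.129).

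Globin genes rose strongly and stood lower with SA than without it, by an amount that did not pass the test without the replicate block. The summed alpha globins were at 265.8, 238 and 163 CPM at 0 h, 3830, 3238 and 3115 with SA, and 4962, 4233 and 4182 without SA. Every SA library lay below every library without SA. The log2 change of the sum with SA was 3.93 ± 0.16 (edgeR adjusted p 4.51e-13), and the direct difference was -0.39 (-0.74 to -0.05, adjusted p 0.718). The summed adult beta globins were at 112, 217 and 111 CPM at 0 h, 2759, 2312 and 2166 with SA, and 3905, 3402 and 3232 without. Again the SA libraries were all below, with a log2 change with SA of 4.04 ± 0.21 and a direct difference of -0.54 (-0.98 to -0.10, adjusted p 0.645). All 10 globin genes tested had a difference below 0 (median -0.553), and none passed the direct test with or without the replicate block. No value with the block is given for the direct differences of the sums. Of the 10, 8 rose with SA (median log2 change 3.259, or 2.894 with Hbb-bh2, at 0 at 0 h, set at its bound), and 9 rose without SA. In TPM, a unit per transcript length that allows genes to be compared, Hba-a1 averaged 452 at 0 h, 9689 with SA and 12770 without, and Hbb-bt 220, 6153 and 8634. The alpha genes and the beta genes are near-identical copies within each locus, so the sums are firmer than the single genes. The embryonic gene Hbb-bh1 went from 0.115, 0.102 and 0.0556 CPM to 5.74, 5.77 and 6.57 with SA, all below the 12.1, 13.8 and 13.7 without SA (difference -1.13, adjusted p 0.637, and 0.0823 with the block).

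All 8 enzymes of the erythroid heme pathway rose while the pathway was blocked, and Alas1, which stands outside that list and fell at 12 h without SA, rose with it. The 8 genes had a median log2 change of 2.12 with SA and 2.213 without, and for 7 of them the interval of the direct difference lay within 1.5-fold. Alas2, the erythroid ALA synthase, stood at 15.9, 14.5 and 12.3 CPM at 0 h, 316, 270.0 and 261 with SA and 350.0, 335 and 347 without. All SA libraries lay a little below the others, and the difference of -0.28 (-0.59 to 0.02) did not pass the edgeR test (adjusted p 0.873). Alad, which encodes the enzyme that SA inhibits, rose by 2.30 ± 0.14 with SA and 2.53 without. Fech, which inserts iron into protoporphyrin, rose by 1.60 ± 0.12 and 1.78.

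Alas1, the ubiquitous ALA synthase (chr9:106233455-106248654, minus strand, GRCm38), was the single gene called in opposite directions at 12 h with and without SA. It stood at 9.72, 10.7 and 11.2 CPM at 0 h, at 38.5, 41.5 and 41.0 with SA and at 6.12, 7.02 and 6.26 without SA. The 3 groups did not overlap. Alas1 rose by 1.94 ± 0.12 with SA (edgeR adjusted p 8.5e-11) and fell by 0.70 without SA (0.000133), and the direct difference of 2.64 (2.37 to 2.91, adjusted p 1.61e-10) was the larger of the 2 increases with SA that passed the test. In TPM it averaged 13.4 at 0 h, 54.9 with SA and 8.78 without, while Alas2 averaged 18.01, 354 and 424. Even with SA, Alas1 was thus below Alas2 per length, whereas at 0 h the levels were similar.

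Transporters that serve heme synthesis rose in the presence of SA. Of 14 heme and iron transport genes tested, 9 rose and 4 fell with SA, none passed the direct test, and the interval lay within 1.5-fold for 13. Slc25a37 encodes mitoferrin-1, the mitochondrial iron importer of erythroid cells. It went from 55.6, 47.9 and 47.5 CPM to 1015, 1162 and 1098 with SA, beside 1152, 1378 and 1332 without. Abcb10, a mitochondrial transporter needed for hemoglobin production, rose by 2.75 ± 0.07 with SA, and Flvcr1, the heme exporter, fell by 1.45 ± 0.09.

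**Figure D3:**
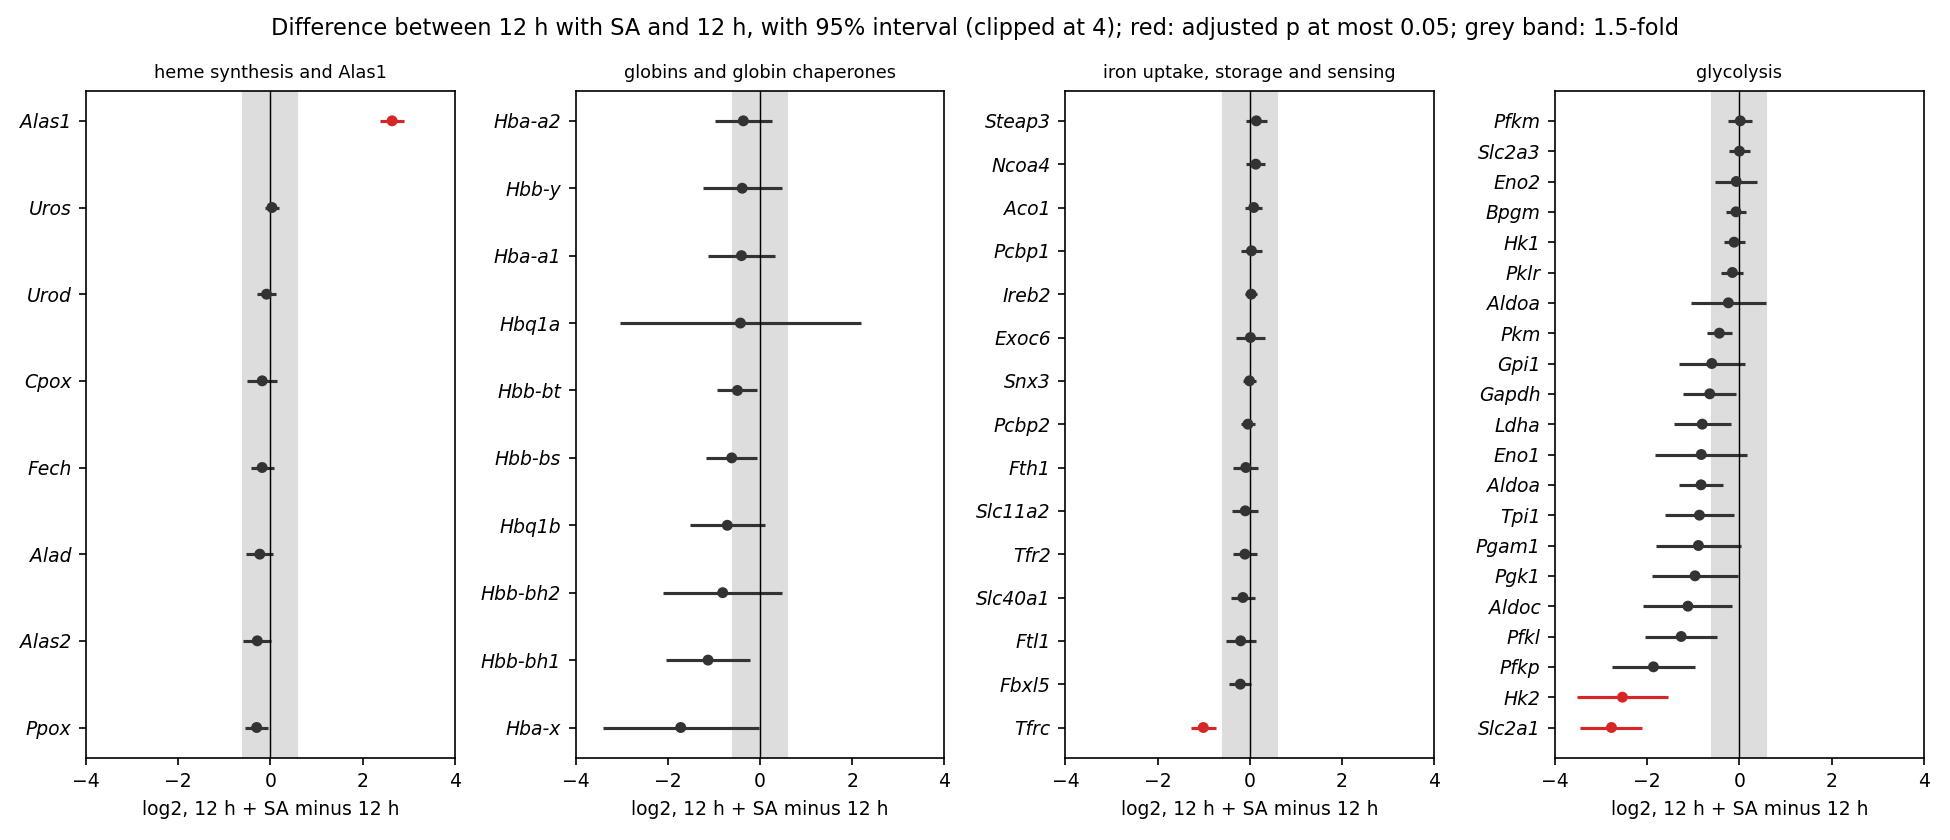
Difference between 12 h with SA and 12 h without SA (x axis, log2) with its 95% interval for genes of 4 lists (1 heme synthesis gene is not drawn): heme synthesis with Alas1, globins, iron uptake and glycolysis. The grey band spans 1.5-fold in either direction and red marks an adjusted p of at most 0.05: Alas1 lies to the right at 2.64, Tfrc at -1.01, Hk2 at -2.54 and Slc2a1 at -2.78 lie to the left, and the globins lie left of 0 with intervals reaching outside the band.

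Iron uptake held 1 gene that differed directly between the 12 h groups. Tfrc, the transferrin receptor through which erythroid cells take up iron (chr16:32608920-32632794, plus strand), stood at 464, 486 and 433 CPM at 0 h, 1182, 1330 and 1210 with SA and 2476, 2485 and 2519 without. The groups did not overlap, and the SA libraries lay between the other groups. Tfrc rose by 1.43 ± 0.13 with SA and by 2.43 without, and the difference of -1.01 (-1.28 to -0.74) passed the edgeR test (adjusted p 0.000404) and stayed past it with each library left out, but not in limma on TPM (0.172 to 0.295). Of the 15 genes of iron uptake, storage and sensing tested, 8 rose and 5 fell with SA. Among all genes 24.6% rose and 25.8% fell. For the 14 list members other than Tfrc the interval of the difference was within 1.5-fold. The ferritin subunits Fth1 and Ftl1 rose by 1.12 ± 0.13 and 0.97 ± 0.16 with SA, beside 1.20 and 1.16. Ferroportin (Slc40a1), the iron exporter, fell by 1.15 ± 0.12.

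Tfrc mRNA is known to be stabilised in iron-poor cells by proteins that bind iron-responsive elements in its 3′ UTR, and the same elements in the 5′ UTR of Alas2 and ferritin mRNAs limit their translation. The elements are shown because Tfrc was the gene carrying them that differed with SA. They are from GENCODE M21 transcripts (GRCm38), 27 bases each, with the bulged C and the loop of 6 bases in capitals.
Tfrc element 1 (chr16:32631220-32631246, plus): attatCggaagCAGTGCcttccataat
Tfrc element 2 (chr16:32631599-32631625, plus): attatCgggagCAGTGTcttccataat
Tfrc element 3 (chr16:32631664-32631690, plus): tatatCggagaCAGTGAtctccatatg
Tfrc element 4 (chr16:32631711-32631737, plus): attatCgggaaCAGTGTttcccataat
Alas2 (chrX:150547459-150547485, plus): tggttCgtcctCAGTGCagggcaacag
Fth1 (chr19:9982733-9982759, plus): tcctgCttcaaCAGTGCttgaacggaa
Ftl1 (chr7:45459780-45459806, minus): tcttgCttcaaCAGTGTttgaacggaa
The search asked for 5 paired bases above the bulged C and at least 3 of 5 below it, and was chosen after the values had been seen. It found such letters in a UTR of 37 of 12263 protein-coding genes tested (0.302%). Of the 37, 12 rose and 9 fell with SA against 0 h, where 24.6% and 25.8% of all genes did. Tfrc was the 1 that passed the direct test, beside 0.364% of all genes called lower. Alas2, Fth1 and Ftl1 had differences of -0.28, -0.08 and -0.20, none past the test.

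Genes that heme is known to derepress through BACH1 did not respond as one group. Of 27 genes of the BACH1 and NRF2 list tested, 9 rose and 11 fell with SA (median -0.197). Among all genes 24.6% rose and 25.8% fell. Without SA 11 rose and 9 fell (median 0.141). Of the 27 differences 20 were below 0, against 43.5% of all genes. Hmox1, heme oxygenase (chr8:75093621-75100589, plus strand), stood at 8.15, 9.60 and 7.83 CPM at 0 h, at 6.31, 8.56 and 7.22 with SA and at 20.4, 23.3 and 22.4 without SA. The SA libraries overlapped with 0 h, and both lay below all libraries without SA. Its change with SA was -0.21 ± 0.31 (edgeR adjusted p 0.619) and the direct difference -1.58 (-2.20 to -0.95, adjusted p 0.0194), a call lost when any 12 h library other than replicate 1 without SA was left out (0.0765 to 0.138). Gclm, a subunit of the enzyme that starts glutathione synthesis, showed the same arrangement at 129, 116 and 111 CPM at 0 h, 120, 114 and 114 with SA and 188, 169 and 174 without. Its difference of -0.61 (adjusted p 0.0278) was lost when any library of the 12 h groups was left out (0.0878 to 0.182) and in limma on TPM (0.406 to 1). Ftl1, Fth1 and Blvrb, biliverdin reductase B, belong to the same list and rose with SA by 0.97, 1.12 and 1.22, within 0.20 of their rises without it. Bach1 itself rose by 0.58 ± 0.09 with SA and by 0.67 without.

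Among genes of the response that HRI is known to start in heme-poor cells, none passed the direct test as higher with SA. Of 44 genes of the HRI and ATF4 list tested, 15 rose and 15 fell with SA (median -0.112). Among all genes 24.6% rose and 25.8% fell. Without SA 18 rose and 12 fell (median 0.174). In the direct test 2 passed, both lower with SA, and 38 of 44 differences were below 0, against 43.5% of all genes. Eif2ak1, the HRI gene, stood at 73.8, 71.6 and 72.0 CPM at 0 h, 166, 164 and 163 with SA and 167, 168 and 168 without. Atf4 rose by 0.49 ± 0.11 with SA and 0.48 without, and the difference was 0.01 (-0.22 to 0.24); the rise with SA lost its call in limma on TPM (adjusted p 0.059 to 0.0834). Asns, asparagine synthetase and a standard target of ATF4, was at 307, 304 and 293 CPM at 0 h, 285, 289 and 287 with SA and 293, 302 and 296 without. The values for Atf4 are of its mRNA, and HRI acts on translation, which these libraries do not measure.

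Trib3, a pseudokinase and target of ATF4 (chr2:152337422-152344032, minus strand), was the list member with the largest direct difference. It stood at 0.916, 1.62 and 0.889 CPM at 0 h, 3.24, 3.37 and 2.96 with SA and 10.5, 15.7 and 17.1 without. The groups did not overlap, and the difference was -2.17 (-2.96 to -1.37, edgeR adjusted p 0.0111), a call lost when any 12 h library other than replicate 1 without SA was left out (0.0584 to 0.101). Mthfd2, a mitochondrial folate enzyme, rose by 1.33 ± 0.11 with SA and by 1.97 without (difference -0.64, adjusted p 0.0111). That call was lost in the same 5 cases (0.0662 to 0.084) and in limma on TPM (0.256 to 1). Nupr1, a stress-induced chromatin protein, rose from 0.0382, 0.305 and 0.0185 CPM to 13.7, 14.4 and 11.8 with SA and to 14.2, 13.7 and 14.7 without. Ppp1r15a, which directs the phosphatase that reverses the action of HRI, rose by 2.14 ± 0.14 and 2.30.

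Most glycolysis genes did not pass the test against 0 h with SA, which does not show that they were unchanged. Of 21 entries tested (Aldoa stands under 2 gene identifiers), 3 rose and 3 fell with SA (median -0.099). Among all genes 24.6% rose and 25.8% fell. Without SA 8 rose and 2 fell (median 0.633), against 25.3% and 27.6% of all genes. Of the 21 differences 19 were below 0 (median -0.806). Slc2a1, the glucose transporter GLUT1 (chr4:119108711-119137983, plus strand), stood at 2.79, 4.29 and 2.96 CPM at 0 h, 2.59, 3.77 and 2.26 with SA and 18.9, 22.2 and 18.4 without SA. The SA libraries overlapped with 0 h and lay far below the others, with a direct difference of -2.78 (-3.45 to -2.10, edgeR adjusted p 0.000228). Its change with SA against 0 h was -0.19 ± 0.35 (adjusted p 0.683) and became 0.011 without 0 h replicate 2. Hk2, hexokinase 2, was at 16.1, 18.3 and 14.8 CPM at 0 h, at 11.2, 14.3 and 11.9 without SA and at 2.27, 2.11 and 2.06 with SA, below every other library. Its difference of -2.54 (adjusted p 0.018) was lost when any 12 h library other than replicate 1 without SA was left out (0.0672 to 0.143).

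Pfkp, the platelet-type phosphofructokinase, was at 0.701, 1.03 and 1.04 CPM without SA and at 0.229, 0.283 and 0.235 with it, and its difference of -1.86 passed with the replicate block (adjusted p 0.0273) and not without it (0.0659). Pgk1 and Pfkl lay lower with SA and passed neither test. Pgk1 stood at 197, 203 and 184 CPM at 0 h, 192, 186 and 191 with SA and 336, 396 and 377 without (difference -0.96, -1.90 to -0.02, adjusted p 0.804). Pfkl, the liver-type phosphofructokinase, was at 45.3, 48.0 and 44.9, then 37.5, 42.9 and 39.2 with SA and 83.5, 108 and 95.2 without (adjusted p 0.273, and 0.0683 with the block). In both genes the SA libraries did not overlap with the libraries without SA. The isoforms typical of red cells behaved otherwise: Pklr, the red cell pyruvate kinase, and Bpgm, which makes 2,3-bisphosphoglycerate, rose by 1.19 ± 0.11 and 1.09 ± 0.11 with SA, and by 1.34 and 1.16 without. Slc16a3, a lactate exporter outside the list, rose to 3.22, 5.00 and 3.32 CPM with SA from 1.03, 1.32 and 0.870, and to 27.5, 36.5 and 27.1 without (difference -2.97, adjusted p 0.0111), a call lost in 4 of the 6 omissions of a 12 h library (0.0584 to 0.109). The rise of Slc16a3 from 0 h with SA was itself lost without 0 h replicate 1 or 3 or SA replicate 2 (0.0615 to 0.0795).

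Among the 47 genes of the direct test, 19 had risen from 0 h with SA and lay lower than without SA. A further 19 lay lower and did not pass the test against 0 h with SA, which does not show that they were unchanged. Of the rest, 7 had fallen and lay lower, and 2 had risen and lay higher. Of those whose rise was smaller with SA, Adgrd1 (an adhesion G protein-coupled receptor) rose by 3.51 ± 0.24 against 4.84, Dcbld2 (a membrane receptor) by 1.57 ± 0.14 against 3.13, and Mgarp (a mitochondrial protein) by 1.35 ± 0.32 against 3.08. Dcbld2 showed the clearest separation, at 8.95, 10.8 and 10.4 CPM at 0 h, 29.8, 30.9 and 28.5 with SA and 71.4, 95.7 and 96.8 without SA. Rgs11, a regulator of G protein signalling, rose by 0.80 ± 0.27 against 2.10. In 4 genes with at least 100 counts on average the level fell with SA and no fall passed the test in its absence: beside Hk2 they were Plekha2 (-1.24 ± 0.22), Usp11, a deubiquitinase (-0.87 ± 0.14), and Fam169a (-0.67 ± 0.12). Sh2d4b, an adaptor protein with an SH2 domain and the other gene that was higher with SA, was at 0, 0.0508 and 0.0741 CPM at 0 h, 2.80, 2.88 and 3.41 with SA and 1.11, 1.01 and 1.16 without (difference 1.46, adjusted p 0.022); it falls outside the naming rule and was chosen after its value was seen. With a library of the 12 h groups left out, the calls of Rgs11, Plekha2, Usp11 and Fam169a were lost in at least 5 of the 6 cases, and that of Mgarp in 3 (0.0584 to 0.0612). The rise of Rgs11 from 0 h was lost without 0 h replicate 2 or 3 or SA replicate 2 (0.0788 to 0.113).

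**Figure D4:**
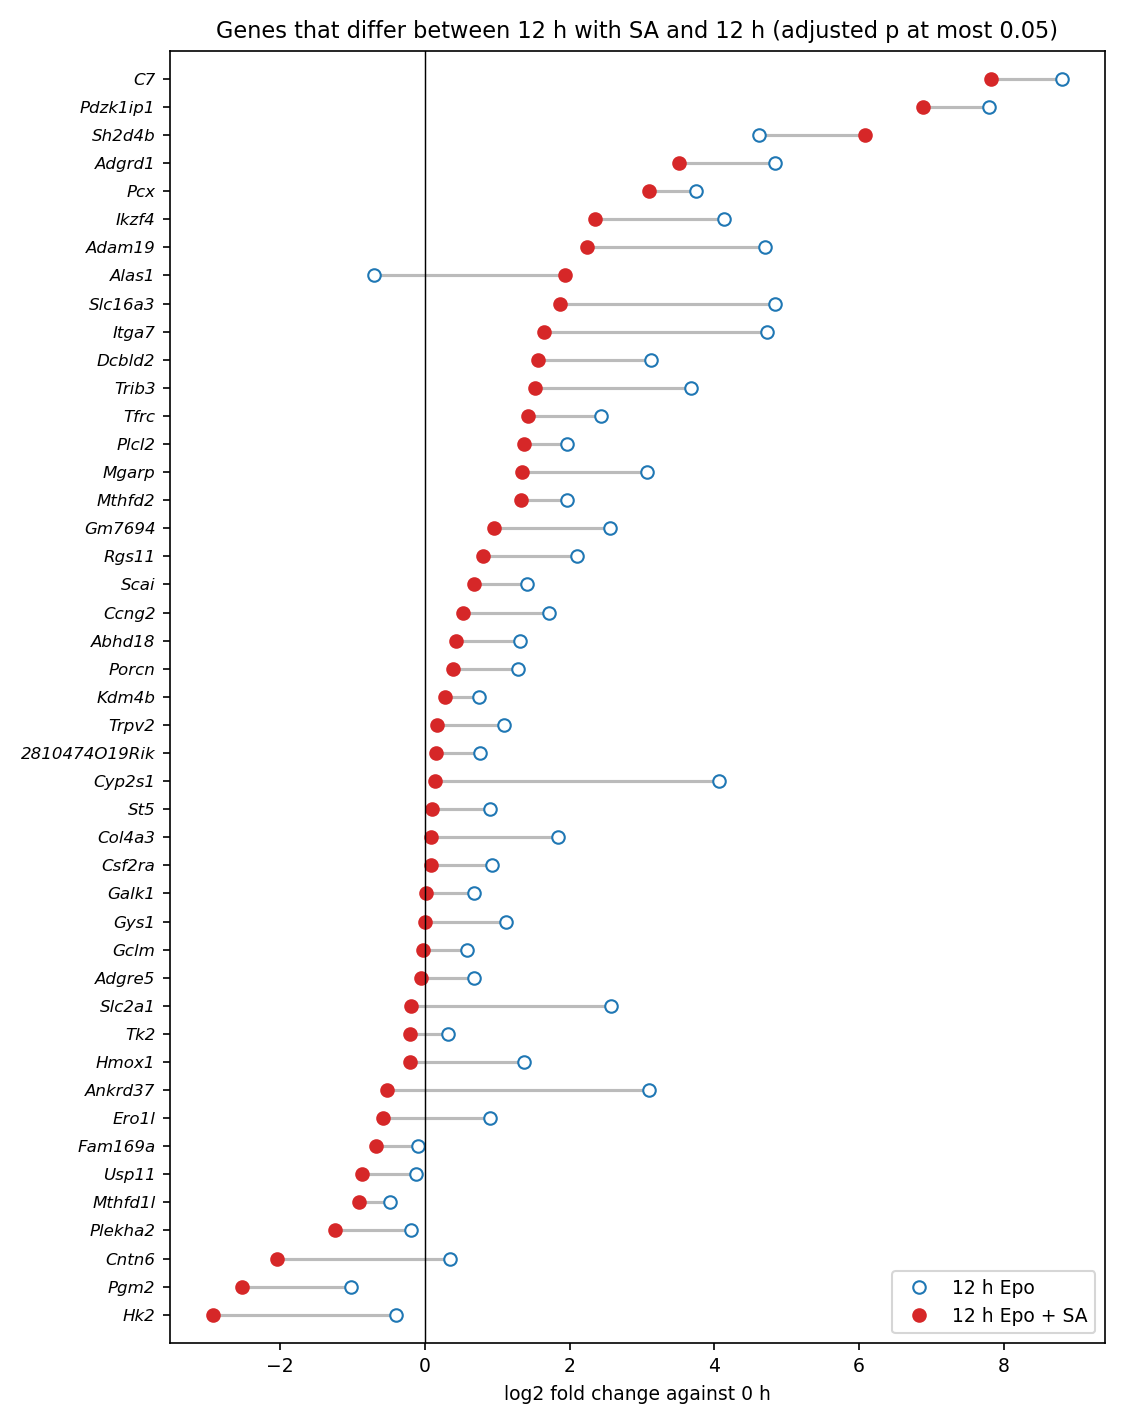
Log2 change from 0 h with SA and without SA for 45 of the 47 genes that differed directly between the 12 h groups, ordered by the change with SA (2 genes with no count in a group are left out). The points with SA lie to the left of those without, except for Alas1 and Sh2d4b.

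Ribosome biogenesis genes fell and mitotic genes rose in the presence of SA. Of 30 ribosome biogenesis genes tested, 28 fell and none rose (median -0.863, beside -0.993), with 28 of 30 differences at or above 0 and 29 intervals within 1.5-fold. Polr1b, a subunit of RNA polymerase I, went from 125, 129 and 129 CPM to 43.4, 45.7 and 42.0 with SA and to 41.5, 36.7 and 38.3 without. Of 26 genes of G2 and mitosis, 21 rose and 1 fell with SA, and all 26 intervals lay within 1.5-fold. Aurka, the mitotic kinase Aurora A, rose by 1.54 ± 0.14 with SA and 1.45 without. Limma on TPM called 11 to 13 of the mitotic genes as higher. Of 27 DNA replication genes 8 rose and 3 fell, against 24.6% and 25.8% of all genes, and other methods called 3 to 17 of them higher. Cdc6, which loads the replicative helicase, rose by 1.40 ± 0.13 against 1.39. The 40 cytosolic ribosomal protein genes all had intervals within 1.5-fold, and 1 of them fell.

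Cholesterol synthesis genes rose with SA. Of 25 genes, 19 rose and 1 fell (median 0.656, beside 0.807 without SA), and 24 of 25 differences were below 0 although none passed the test. The 19 became 11 or 12 in 2 of the limma fits on TPM. Fdps, farnesyl diphosphate synthase, went from 31.4, 32.0 and 36.7 CPM to 108, 110 and 114 with SA, all below the 133, 137 and 133 without SA. Hsd17b7 and Fdft1, which act later in the pathway, rose by 1.96 ± 0.16 and 1.90 ± 0.15 with SA.

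Most genes of late maturation rose. With SA, 15 of 22 members of that list were higher and 2 lower (median 1.012, beside 1.192), and none passed the direct test. Cpeb4, a translational repressor of terminal erythroid cells, went from 19.8, 20 and 20.1 CPM to 360, 369 and 401 with SA and to 382, 414 and 464 without. Bnip3l (NIX), the receptor that marks mitochondria for removal, rose by 1.69 ± 0.13 with SA and 2.01 without, and the related Bnip3 did otherwise: 7.12, 9.39 and 7.39 CPM at 0 h, 8.14, 11.7 and 11.6 with SA and 40.2, 66.9 and 59.8 without. The difference of -2.40 for Bnip3 passed with the replicate block (adjusted p 0.00756) and not without it (0.081). In the respiratory chain, 13 of 30 genes encoded in the nucleus were higher and 1 lower, and 5 of 13 genes encoded in mitochondria were lower, every interval of both lists lying within 1.5-fold. The 13 became 2 in limma on TPM and 24 with the compared libraries alone, and the 5 ranged from 1 to 8. Of 21 heat shock chaperone genes 12 fell (6 or 7 in 2 of the limma fits) and 1 rose, and Hspd1, the mitochondrial chaperonin, changed by -0.77 ± 0.13 with SA and -0.91 without. Of 22 iron-sulfur cluster assembly genes 8 rose and 7 fell, against 24.6% and 25.8% of all genes. Glrx5, a glutaredoxin of that pathway, rose by 1.10 ± 0.12 with SA and 1.12 without. Of 19 cell death genes 8 rose and 4 fell, against 24.6% and 25.8% of all genes. Bcl2l1, the survival factor BCL-XL, was among those that rose, by 0.66 ± 0.14.

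The letters TTCNNNGAA, read on both strands in the 300 bases from 250 before to 50 after a RefSeq start, occurred in 8.3% of 32851 promoters. Among genes tested here that had a promoter in the table they occurred in 834 of 9539 genes (8.74%), in 38 of 506 genes that rose with SA by 1 to 2 on the log2 scale (7.51%), in 34 of 250 that rose by 2 to 4 (13.6%) and in 18 of 97 that rose by over 4 (18.6%). The share was thus higher in the larger rises, and among falls of over 4 it was 5 of 34 genes (14.7%). The GATA letters AGATAA occurred in 841 of 9539 genes (8.82%), in 63 of 506, 36 of 250 and 11 of 97 genes in the same classes of rise (12.5%, 14.4% and 11.3%), and in 8 of 34 falls of over 4 (23.5%). No test was made of these shares, and the groups of over 4 are small.

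In the lists the same letters were found as follows. Of 24 promoters matched to 18 of the 25 Epo and STAT5 targets, 3 held TTCNNNGAA (12.5%), those of Cish, Gfi1b and Socs3. The ATF4 element TGATGNAA occurred in 13 of 50 promoters of the HRI and ATF4 list (26%), against 3.97% of all promoters, among them those of Trib3, Nupr1, Asns and Chac1. The antioxidant response element TGACNNNGC, which BACH1 and NRF2 share, occurred in 11 of 34 promoters of that list (32.4%), against 12.4% of all, Gclm being among them. AGATAA occurred in 2 of 8 heme synthesis promoters (Alas2 and Cpox, 25%) and 7 of 30 membrane promoters (23.3%), against 11.2% of all. Trib3 and Nupr1, printed above, both held the ATF4 letters; the direct difference was -0.09 (-0.48 to 0.29) for Nupr1 and -2.17 for Trib3.

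**Figure D5:**
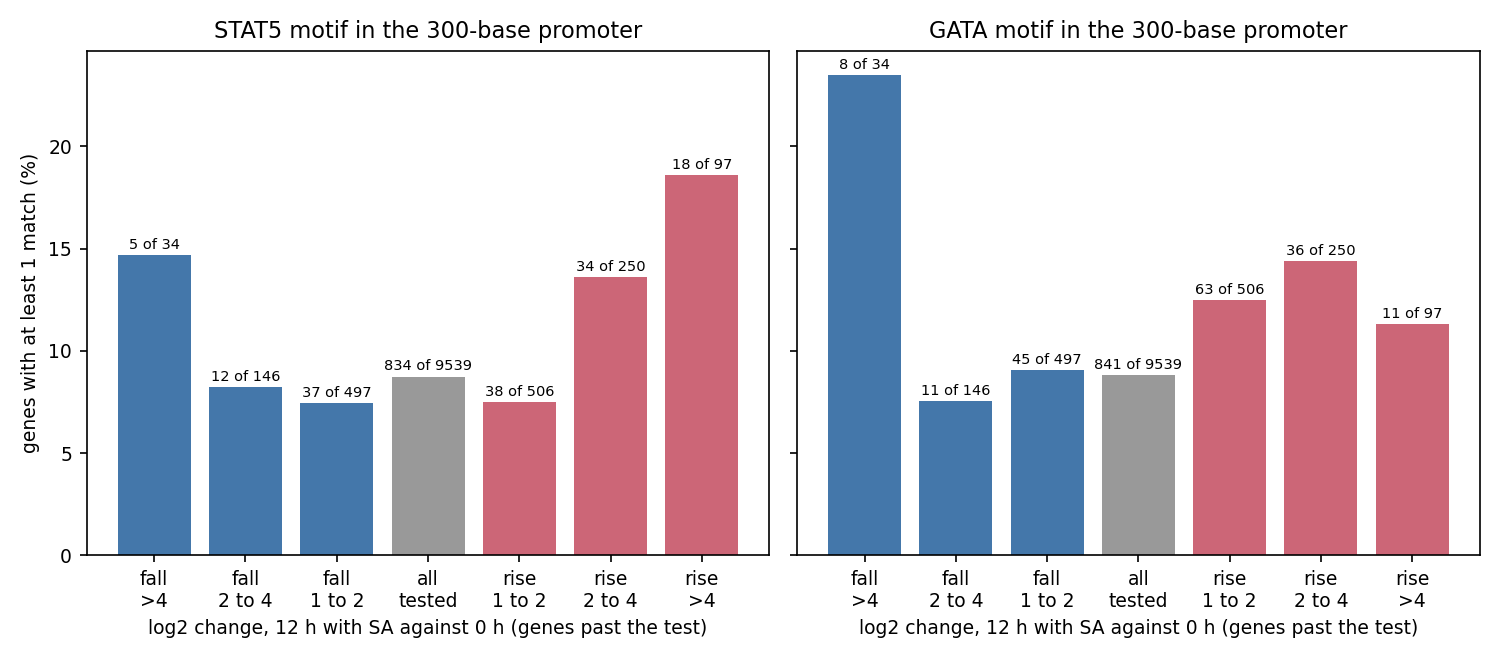
Share of genes with at least 1 match (y axis, percent) to the STAT5 letters (left) and the GATA letters (right) in the 300-base promoter, by class of log2 change at 12 h with SA against 0 h (x axis), with the counts above each bar and all genes tested in grey. The STAT5 share is 7.51%, 13.6% and 18.6% in the 3 classes of rise, and the outermost class of falls holds 34 genes.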

How the data were processed

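Strand-specific RNA-seq of polyA RNA gave 21 libraries in 7 groups of 3. The authors deposited a table of estimated counts per gene, which need not be whole, and a table of TPM values (transcript levels scaled for length and library size); the submitters' processing notes name kallisto, STAR 2.5.3a, DESeq2 and the builds GRCm38.p5 and mm10, and which tool made which table is not given in the sources used here. Estimated counts were rounded. Genes passing edgeR's filterByExpr (minimum count 10) were fitted over all 21 libraries, which share 1 estimate of the spread, with TMM scaling and the quasi-likelihood test (R 4.3.3, edgeR 4.0.16). P-values were adjusted by Benjamini-Hochberg over the 12360 genes, with a threshold of 0.05. CPM values are scaled by TMM and compare 1 gene between libraries, and TPM compares genes. Errors of log2 changes are standard errors, and the interval of a difference is at 95%. For 12 h with SA against 0 h, the test recovered most changes planted in data simulated from these libraries before use. The simulated libraries had no effect of replicate number, and the direct comparison of the 12 h groups was not checked this way. Alternatives used limma 3.58.1 on log2(TPM + 1) or log2(TPM + 0.1), and DESeq2 1.42.0. DESeq2 was fitted to the 9 libraries of 0 h and the 12 h groups only.

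Genes were named by a rule: a fixed panel, the 8 largest changes each way among genes averaging 100 counts or more whose libraries do not overlap between groups, at most 2 called members for each list in each direction, and those that differed with SA. Genes outside it, and the search for iron-responsive elements, were chosen after their values were seen. Among these genes are Sh2d4b, Bnip3, Csf2ra, Socs3, Stat5b, Per1, Fkbp5, Dmtn, Epb42, Abcb10 and Ftl1. Pfkp, Pgk1, Pfkl, Fdps, Ppp1r15a, Mcpt2, Mcpt4 and Cpa3 are others. The comparison and the lists were chosen with earlier results of these data known, so list counts are descriptions. The labels give the groups the same replicate numbers. Deviations from the group mean over 6180 genes correlated at 0.51, 0.424 and 0.54 for same-numbered libraries of the 12 h groups. For 12 h and 0 h they correlated at 0.489, 0.242 and 0.198, while replicate 3 at 12 h and replicate 2 at 0 h correlated at 0.235. Both comparisons were therefore taken as paired and were also fitted with the replicate number as a block. Counts, errors, intervals and adjusted p-values given without mention of the block come from the fit without it, which ignores this pairing. Between 12 h with SA and 0 h the values were 0.322, -0.052 and 0.16, and that comparison was not taken as paired. This split rests on the correlations alone, not on the labels. Gene positions and UTRs are from GENCODE M21 and promoters from RefSeq (GRCm38.p6). Some named genes are not reported here.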

Additional observations from a re-analysis of the deposited data

Results flagged for a closer look

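Alas1 was singled out because its change went in opposite directions at 12 h with and without SA, and the difference itself was tested: 2.64 on the log2 scale (12 h with SA minus 12 h, edgeR adjusted p 1.61e-10), with all 3 libraries with SA above, and all 3 without SA below, the 3 libraries at 0 h.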

How the results depend on the processing

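For 12 h with SA against 0 h the count of 6225 genes became 3296 with limma on log2(TPM + 0.1), and for 12 h against 0 h the count of 6539 became 3724. For 12 h with SA against 12 h the count of 47 became 74 without the count filter and 465 with the compared libraries alone. Limma gave 16 on log2(TPM + 0.1) and 114 on all genes above 0. DESeq2's Wald test gave 788 on the 9 libraries of 0 h and the 12 h groups. The cause was not tested. With the replicate block the count became 84 for the 12 h groups and 6801 for 12 h against 0 h, both taken as paired. It became 6504 for 12 h with SA against 0 h, which was not taken as paired. With 1 library left out the count ranged from 11 to 31 for omissions in the 12 h groups, where the fit has fewer samples. Members of other lists past the test moved by over 1.5 times as well: with limma on log2(TPM + 0.1), 5 iron uptake genes were higher in place of 8, 6 BACH1 and NRF2 genes lower in place of 11, and 5 iron-sulfur genes higher and 3 lower in place of 8 and 7. With the compared libraries alone 8 glycolysis genes were lower in place of 3, and 5 erythroid regulators in place of 3. Changes against 0 h that did not pass the test moved across 0: Gclm, 12 h with SA against 0 h, ranged from -0.077 to 0.035 (above 0 without 0 h replicate 1) and Slc2a1, 12 h with SA against 0 h, from -0.449 to 0.011 (above 0 without 0 h replicate 2). The direct difference of Alas1 kept its direction and its call in every alternative run. DESeq2's size factors moved the median of all genes to -0.053 and the split to 2774 higher and 3546 lower. Depth limits the genes with few counts at 0 h, whose ratios carry wide counting intervals.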
